A study of Mus musculus with 30 samples.

Results

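Ddit3, Atf3, Nupr1, Atf4, Atf5 and Ppp1r15a are 6 genes of the integrated stress response, out of 48709 genes listed for C2C12 myoblasts that differentiated with or without hexavalent chromium, Cr(VI). They were taken by name from the deposited table and were chosen by their levels in these libraries, since earlier results had shown Ddit3, Atf3 and Nupr1 high at 5 µM on day 4. Every comparison with a 5 µM group is therefore a description for these 6 genes, with the standard error (SE) of the difference and no p, while comparisons among the other groups are tested. All 6 were among the 12946 genes that passed the filter on low values.

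C2C12 is an established mouse line of muscle progenitor cells, whose myoblasts leave the cell cycle and fuse into myotubes when serum is lowered. Cells with 2 or 5 µM of Cr(VI), given as potassium chromate, were sampled on days 1, 2 and 4, and untreated cells (0 µM) on days 0, 1, 2 and 4. Per the labels, chromate was added to the horse serum medium that induces differentiation. The 30 RNA-seq libraries formed 10 groups of 3, all from this 1 line. The labels call the replicates biological and say nothing more of their origin, so p-values measure the spread between these libraries. Levels are in scaled CPM, a name given here to the deposited CPM because its columns sum to between 892246 and 1079916, and log2 differences are on log2(scaled CPM + 1), which understates the change of low genes.

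The integrated stress response starts when a kinase phosphorylates the translation factor eIF2α, which slows protein synthesis as a whole while the mRNAs of ATF4 and ATF5 are translated more. ATF4 then binds the promoters of genes for amino acid supply and of further transcription factors, among them Ddit3, which encodes CHOP, and Atf3. Ppp1r15a encodes GADD34, which brings a phosphatase to eIF2α and closes the loop. The values here are mRNA levels, and neither eIF2α phosphorylation nor protein was measured. In skeletal muscle the pathway is known for its part in muscle wasting and in the response to failing mitochondria.

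The promoters of 4 of the genes are shown because each holds a match to a motif that proteins of this pathway are known to bind. They are the 250 bases before the RefSeq start of each gene in GRCm38.p6, written 5′ to 3′ on the gene's strand, with the match in capitals.
Atf3: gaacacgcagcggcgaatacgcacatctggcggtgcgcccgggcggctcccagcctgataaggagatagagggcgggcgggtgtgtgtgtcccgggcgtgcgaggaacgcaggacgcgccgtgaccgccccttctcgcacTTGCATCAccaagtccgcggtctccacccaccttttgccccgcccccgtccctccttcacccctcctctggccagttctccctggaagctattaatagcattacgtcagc
Nupr1: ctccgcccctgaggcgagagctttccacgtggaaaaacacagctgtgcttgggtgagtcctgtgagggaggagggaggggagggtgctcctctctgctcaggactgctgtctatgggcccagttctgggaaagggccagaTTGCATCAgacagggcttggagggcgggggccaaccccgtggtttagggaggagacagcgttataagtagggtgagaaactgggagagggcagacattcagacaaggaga
Ppp1r15a: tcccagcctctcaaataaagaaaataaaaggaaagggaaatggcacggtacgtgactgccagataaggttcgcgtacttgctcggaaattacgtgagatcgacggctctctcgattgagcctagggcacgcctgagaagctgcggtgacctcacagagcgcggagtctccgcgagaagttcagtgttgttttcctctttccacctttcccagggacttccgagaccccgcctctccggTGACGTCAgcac
Ddit3: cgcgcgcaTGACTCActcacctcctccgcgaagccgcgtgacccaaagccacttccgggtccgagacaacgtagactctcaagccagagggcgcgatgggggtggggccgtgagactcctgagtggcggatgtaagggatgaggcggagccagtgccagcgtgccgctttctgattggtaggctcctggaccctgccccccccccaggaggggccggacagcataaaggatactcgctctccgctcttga
Atf3 (chr1:191183334-191183583, minus strand) and Nupr1 (chr7:126625471-126625720, minus strand) both hold the C/EBP-ATF response element TGATGNAA, read on the other strand as TTGCATCA, and in both it spans bases -110 to -103 from the start. Ppp1r15a (chr7:45526269-45526518, minus strand) holds the cAMP response element TGACGTCA at -12 to -5. Ddit3 (chr10:127290543-127290792, plus strand) holds the AP-1 element TGACTCA at -242 to -236. These letters were searched on both strands, and of 32851 RefSeq promoter windows of the same length 3.45% held the C/EBP-ATF element, 1.55% the cAMP element and 4.46% the AP-1 element. The windows of Atf4 and of both Atf5 starts held none of these 3, and none of the 6 genes' windows held the antioxidant element TGACNNNGC (10.2% of all windows) or the endoplasmic reticulum stress element (0.113%). A match in these letters is a description of the sequence and was not tested for binding.

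A pair of day 1 libraries stood apart from the other 28. Replicate 1 of 2 µM held all 6 adipocyte markers, with a summed level of 3140 scaled CPM, Fabp4 at 2529 and Adipoq at 158, against a highest Fabp4 of 1.05 and a highest Adipoq of 0.338 scaled CPM in the 28. Replicate 3 of 5 µM held all 5 lung epithelial markers, with a sum of 348 scaled CPM, and leukocyte markers with a sum of 300. Day 1 differences and calls are therefore given with and without both libraries, unless stated otherwise. At 5 µM on day 4 these lists were at or near 0, with adipocyte sums of 0 to 1.21, lung sums of 0 to 0.0942 and leukocyte sums of 0 to 0.175 scaled CPM, and Plin1, Cidec, Cfd, Retn, Sftpb, Sftpa1, Sftpd, Scgb1a1, Ptprc, Cd74 and Igkc at 0. All 6 muscle markers were read in every group, and their summed level at day 4 was 2875 to 3484 scaled CPM at 5 µM, against 5794 to 6652 in untreated cells. Over the 30 libraries each of the 6 genes rested on 53 (Atf3) to 9531 (Atf4) reads per library. Mitochondrially encoded genes took 12.0 ± 0.657% of the signal at 5 µM on day 4, against 10.1 ± 0.919% in untreated cells (SD, n = 3), and their part in the results below was not tested.

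**Figure D1:**
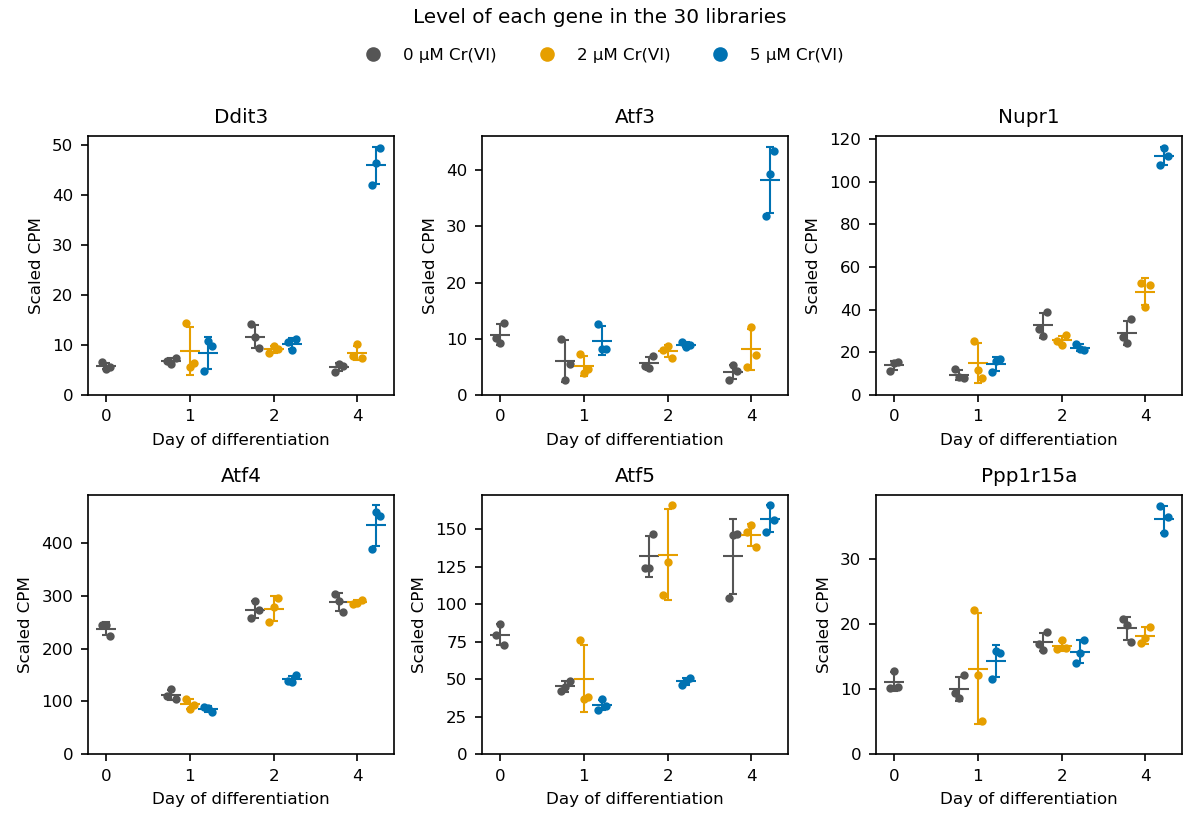
Level of each gene in scaled CPM (y axes from 0) by day of differentiation and dose of Cr(VI). Points are the 3 libraries of a group, and the bars are their mean and SD. At 5 µM on day 4 the Ddit3 libraries sit at 42.0 to 49.4, above every other library, and the Atf5 libraries at 5 µM on day 2 sit at 46.2 to 50.6, against 124 to 147 in untreated cells.

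Atf4 and Atf5, the activators of the pathway, had lower levels at 5 µM than in untreated cells on days 1 and 2 and higher levels on day 4. Atf4 encodes the central transcription factor of the response. In untreated cells it averaged 238 ± 11.7 scaled CPM on day 0, 113 ± 9.50 on day 1, 274 ± 15.5 on day 2 and 288 ± 17.1 on day 4 (SD, n = 3 each). At 5 µM it averaged 85.7 ± 4.97 on day 1 and 142 ± 7.02 on day 2, with 390, 460 and 452 scaled CPM in the 3 libraries of day 4. The day 2 libraries at 5 µM (139, 137 and 150) lay below all 3 untreated ones (259, 290 and 273), and the day 4 libraries lay above all 3 untreated ones (304, 291 and 270). The log2 difference between 5 µM and untreated cells was -0.39 on day 1, -0.94 on day 2 and 0.59 on day 4, each with an SE of 0.09. Without the odd libraries the day 1 difference was -0.34. At 2 µM, Atf4 averaged 94.6 ± 9.97, 276 ± 23.0 and 288 ± 3.74 scaled CPM on days 1, 2 and 4.

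Atf5 encodes a related activator that is also linked to the mitochondrial unfolded protein response. At 5 µM it had 46.2, 49.0 and 50.6 scaled CPM on day 2, against 124, 124 and 147 in untreated cells, a log2 difference of -1.41 ± 0.17 (SE). Its day 1 libraries at 5 µM (29.6, 36.7 and 32.1) were also all below the untreated ones (41.8, 44.8 and 48.6), with a log2 difference of -0.45, and of -0.44 without the odd libraries. On day 4 the 5 µM libraries read 148, 166 and 156 scaled CPM, against 104, 146 and 147 in untreated cells, so the groups came close without overlapping. That log2 difference was 0.26 ± 0.17 (SE), and it was 0.09 to 0.35 when each library of the comparison was left out in turn. In untreated cells Atf5 averaged 79.6 ± 7.08 on day 0, 45.1 ± 3.43 on day 1, 132 ± 13.6 on day 2 and 132 ± 25.0 on day 4. Atf5 shares 571 bases with Nup62 on the opposite strand, and the libraries' strand is not given, so reads in shared stretches cannot be told apart. Nup62 stood at 114 ± 10.7 scaled CPM at 5 µM on day 4, against 51.0 ± 5.96 in untreated cells.

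Ddit3 and Atf3, bZIP transcription factors that act after ATF4, had the largest differences of the 6 genes at 5 µM on day 4. Ddit3 read 42.0, 46.3 and 49.4 scaled CPM there, against 4.62, 6.08 and 5.85 in untreated cells, a ratio of means of 8.32 and a log2 difference of 2.85 ± 0.26 (SE). The lowest of these 5 µM libraries was above the highest of all the other libraries, 14.3 in the 2 µM day 1 library with adipocyte transcripts. On days 1 and 2, Ddit3 at 5 µM averaged 8.40 ± 3.24 and 10.2 ± 1.08 scaled CPM, against 6.72 ± 0.580 and 11.6 ± 2.32 in untreated cells, and the libraries overlapped on both days. The log2 differences of those days were 0.22 (0.08 without the odd libraries) and -0.17, each with an SE of 0.26. Ddit3 shares 68 bases with Mars, a tRNA synthetase gene on the opposite strand, and Mars read 84.7 ± 7.35 scaled CPM at 5 µM on day 4, against 165 ± 16.9 in untreated cells. The annotation also holds another gene entry under the symbol Ddit3, which shares 2925 bases on the same strand, and the levels are given by symbol.

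Atf3 encodes a stress-induced factor of the same family, known mostly as a repressor. It read 31.9, 39.3 and 43.5 scaled CPM at 5 µM on day 4, against 2.66, 5.32 and 4.22 in untreated cells, a ratio of means of 9.39 and a log2 difference of 2.98 ± 0.30 (SE). Its 5 µM libraries were also above the untreated ones on day 2 (9.45, 8.44 and 8.95, against 5.09, 4.85 and 6.86), with a log2 difference of 0.60 ± 0.30. On day 1 the libraries of the groups overlapped, at 12.7, 8.10 and 8.18 scaled CPM at 5 µM and 10.0, 2.64 and 5.42 in untreated cells (0.72, and 0.81 without the odd libraries). Atf3 was thus the only member whose 5 µM libraries stood above the untreated ones on day 2 as well as on day 4. Before differentiation, on day 0, it averaged 10.7 ± 1.89 scaled CPM, above every later mean of the untreated and 2 µM groups.

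Nupr1 encodes a small stress-induced chromatin protein. It read 108, 116 and 112 scaled CPM at 5 µM on day 4, against 27.2, 24.3 and 35.5 in untreated cells, a ratio of means of 3.86 and a log2 difference of 1.93 ± 0.24 (SE). On day 2 the order was the other way round, with 23.9, 21.4 and 21.2 at 5 µM, all below the 31.0, 27.8 and 39.0 of untreated cells (-0.52 ± 0.24). On day 1 the groups overlapped, with means of 14.3 ± 3.34 at 5 µM and 9.39 ± 2.49 in untreated cells (0.56, and 0.44 without the odd libraries). By day 4 the 3 doses had separate ranges, 24.3 to 35.5 at 0 µM, 41.3 to 52.5 at 2 µM and 108 to 116 scaled CPM at 5 µM.

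Ppp1r15a, the stress-induced regulatory subunit of the eIF2α phosphatase, read 38.1, 34.0 and 36.4 scaled CPM at 5 µM on day 4, against 20.8, 19.9 and 17.2 in untreated cells, a log2 difference of 0.88 ± 0.25 (SE). On day 1 it averaged 14.3 ± 2.42 at 5 µM and 10.0 ± 1.82 in untreated cells, and on day 2 it averaged 15.7 ± 1.75 and 17.2 ± 1.44 in the same order. The groups overlapped on both of those days, and the day 1 difference of 0.48 was 0.41 without the odd libraries. The 3 libraries of 2 µM on day 1 spread widest, from 5.13 to 22.1 scaled CPM, and the highest was the library with adipocyte transcripts. Ppp1r15a shares 717 bases with Tulp2 on the opposite strand, whose level was at most 0.682 scaled CPM.

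Counted over the 6 genes, the 5 µM libraries were all above the untreated ones for 0 genes on day 1, 1 on day 2 and 6 on day 4, and all below for 2, 3 and 0. Of all genes tested, the share that stood apart and higher was 11.3%, then 20.3%, then 28.7%, and the share apart and lower was 16%, then 22.8%, then 30.1%. Since the genes were chosen with these levels known, nothing is read from that count. The step from day 2 to day 4 at 5 µM had log2 differences of 2.29 for Nupr1, 2.07 for Ddit3, 1.97 for Atf3, 1.67 for Atf5, 1.60 for Atf4 and 1.16 for Ppp1r15a, and for all 6 the day 4 libraries were above the day 2 libraries (27.2% of all genes). In bulk samples, fewer cells of a type and less RNA per cell cannot be told apart, so these are levels of the culture as a whole.

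Against 2 µM, the 5 µM libraries of day 2 stood below for 2 genes, Atf4 (-0.95 on the log2 scale) and Atf5 (-1.41), where 17.7% of all genes were apart and lower. On day 4 they stood above for 5 genes, where 27.1% of all genes were apart and higher. The log2 differences there were 2.33 ± 0.26 for Ddit3, 2.17 ± 0.30 for Atf3, 1.20 ± 0.24 for Nupr1, 0.96 ± 0.25 for Ppp1r15a and 0.59 ± 0.09 for Atf4 (SE). Atf5 overlapped between the doses, at 148, 166 and 156 scaled CPM at 5 µM and 148, 153 and 138 at 2 µM (0.10 ± 0.17).

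**Figure D2:**
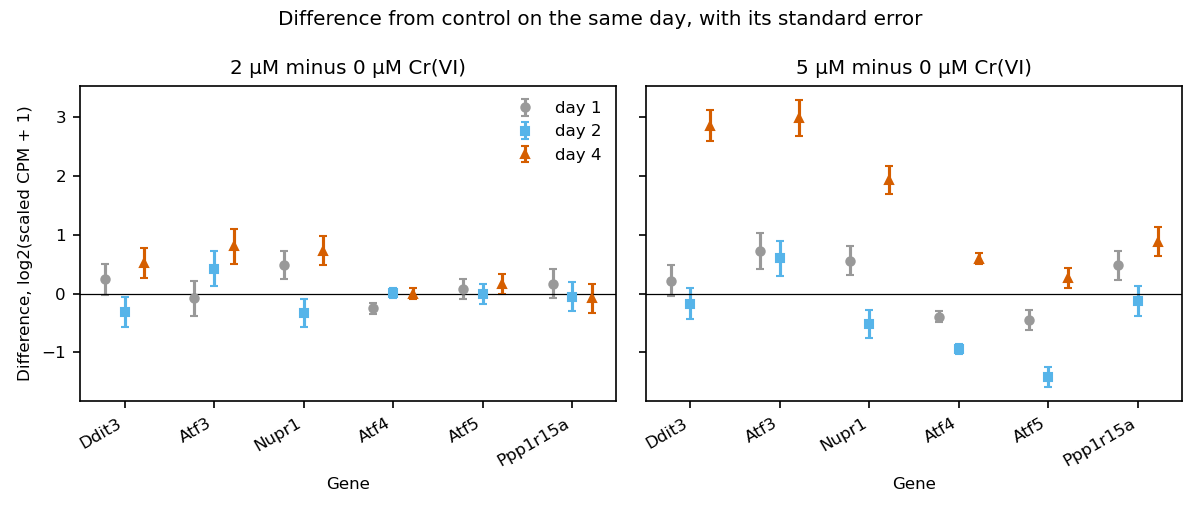
Log2 difference of each gene from untreated cells of the same day (y axis, log2(scaled CPM + 1)), at 2 µM on the left and 5 µM on the right, with bars for the standard error from the fit to all 30 libraries. At 5 µM the day 4 values run from 0.26 for Atf5 to 2.98 for Atf3, and at 2 µM they run from -0.08 for Ppp1r15a to 0.80 for Atf3.

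At 2 µM, 0 of the 6 passed the threshold against untreated cells on day 1, day 2 or day 4 with limma, where 1.99%, 0.51% and 8.84% of all genes were called. At an unadjusted p below 0.05 there were 1, 0 and 2, and edgeR and DESeq2 also called 0 on each day. These tests are not fully independent of the choice of genes, since the day 4 libraries of untreated cells entered it and which values chose Atf4, Atf5 and Ppp1r15a is not recorded. On day 4, Nupr1 read 52.5, 41.3 and 51.5 scaled CPM at 2 µM, against 27.2, 24.3 and 35.5 in untreated cells, a log2 difference of 0.73 ± 0.24 (SE; limma adjusted p = 0.051). All 3 libraries at 2 µM were above the untreated ones. Without the pair of odd day 1 libraries, which share in the estimate of the spread, the adjusted p of Nupr1 was 0.0067 at the same difference, the 1 call among the 6, where 10.6% of all genes were called. It also passed without untreated replicate 3 (0.88, adjusted p = 0.034), the highest untreated value.

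Ddit3 at 2 µM on day 4 was also apart from untreated cells, at 7.75, 10.1 and 7.37 scaled CPM against 4.62, 6.08 and 5.85, with a log2 difference of 0.52 ± 0.26 (SE; limma adjusted p = 0.23). Atf3 read 5.00, 12.1 and 7.18 at 2 µM, against 2.66, 5.32 and 4.22, and the groups overlapped (0.80 ± 0.30, limma adjusted p = 0.099). Leaving out 2 µM replicate 1 brought Atf3 to 1.06 and an adjusted p of 0.048. Of the 6 genes, 2 were thus apart and higher at 2 µM on day 4, where 12.1% of all genes were. Atf4 differed by -0.00 ± 0.09, Atf5 by 0.16 ± 0.17 and Ppp1r15a by -0.08 ± 0.25 on the log2 scale.

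On day 2 at 2 µM the log2 differences lay between -0.33 for Nupr1 and 0.42 for Atf3, and the libraries of all 6 genes overlapped with the untreated ones, where 9.15% of all genes were apart and higher and 12% lower. On day 1 the libraries of all 6 also overlapped (6.47% of all genes apart and higher, 9.11% lower). The differences lay between -0.25 for Atf4 and 0.48 for Nupr1, and between -0.33 for Atf4 and 0.04 for Nupr1 without the odd libraries. All 6 genes were highest in the library with adipocyte transcripts among the 2 µM libraries of day 1, with Ddit3 at 14.3 against 5.60 and 6.43 scaled CPM and Atf5 at 76.1 against 36.8 and 38.1. Without 2 µM replicate 3 of day 1, a library without such transcripts, Nupr1 passed at 0.83 (limma adjusted p = 0.044).

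The change of the 2 µM effect between day 2 and day 4 was tested directly, and 0 of the 6 genes passed with limma, edgeR or DESeq2, where 0.263% of all genes did. At an unadjusted p below 0.05 there were 2, and the largest differences of differences were 1.06 ± 0.34 for Nupr1 (limma adjusted p = 0.32) and 0.84 ± 0.36 for Ddit3 (0.61). With only the 4 groups of that comparison in the fit, Nupr1 passed at 1.06 (limma adjusted p = 0.033). The untreated day 4 libraries entered both this comparison and the choice of genes, which favours low values in them. These p-values are therefore not independent of the choice.

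Levels of the 6 genes were also compared between days of differentiation without chromate. From day 0 to day 1, 3 of the 6 fell, where 48.1% of all genes were called and 22.7% as lower. Atf4 fell by 1.07 on the log2 scale (limma adjusted p = 1.6e-12), to 110, 123 and 105 scaled CPM on day 1, against 244, 245 and 224 on day 0. Atf5 fell by 0.81 (adjusted p = 2.0e-04), and like Atf4 all its day 1 libraries were below those of day 0 (25.8% of all genes). Atf3 fell by 0.87 (adjusted p = 0.018), but its libraries overlapped, at 10.0, 2.64 and 5.42 on day 1 and 10.1, 9.17 and 12.8 on day 0. The call of Atf3 was lost without day 1 replicate 2, which holds its lowest value (-0.46, adjusted p = 0.23), and without day 0 replicate 3 (-0.74, adjusted p = 0.08). It was also lost with edgeR (adjusted p = 0.057) and with only those groups in the fit (adjusted p = 0.14), but kept without the odd libraries (adjusted p = 0.015). Nupr1 differed by -0.53 ± 0.24 (adjusted p = 0.07) and passed without the odd libraries (adjusted p = 0.017), without day 0 replicate 1 (0.046) and without day 1 replicate 1 (0.027), Ppp1r15a by -0.14 ± 0.25 and Ddit3 by 0.18 ± 0.26.

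From day 1 to day 2 in untreated cells, 5 of the 6 rose, where 22.2% of all genes were called, 12.8% as higher. Their day 2 libraries were all above those of day 1, as for 22.2% of all genes. Nupr1 rose by 1.70 on the log2 scale (limma adjusted p = 1.1e-06), to 31.0, 27.8 and 39.0 scaled CPM on day 2, against 12.3, 8.14 and 7.78 on day 1. Atf5 rose by 1.52 (adjusted p = 1.5e-08) and Atf4 by 1.28 (adjusted p = 8.8e-14). Ppp1r15a rose by 0.74 (adjusted p = 0.032) and Ddit3 by 0.70 (adjusted p = 0.048), to 14.1, 11.5 and 9.41 scaled CPM on day 2, against 6.78, 6.12 and 7.27. These last calls had the highest adjusted p of the 5, and each was lost when any but 1 of the 6 libraries of the comparison was left out, with differences of 0.56 to 0.79. Ppp1r15a kept its call without day 1 replicate 3 (0.87, adjusted p = 0.028), and Ddit3 without day 2 replicate 3 (0.83, adjusted p = 0.042). Without the odd libraries both calls were kept (adjusted p = 0.0059 for Ppp1r15a and 0.02 for Ddit3). Both were lost with no filter on low values (0.074 and 0.079 for Ppp1r15a and Ddit3), and Ddit3 also with a pseudocount of 0.5 (0.051) and with median-of-ratios scaling (0.059). Atf3 differed by 0.04 ± 0.30.

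From day 2 to day 4 in untreated cells Ddit3 was the member that passed, where 25.7% of all genes did, 14.1% as lower. It fell by 0.95 (limma adjusted p = 0.0055), to 4.62, 6.08 and 5.85 scaled CPM on day 4, against 14.1, 11.5 and 9.41 on day 2, groups that did not overlap (21.5% of all genes lower). The genes were chosen with high values at 5 µM over these same untreated day 4 libraries, which favours low values in them, so this p is not independent of the choice. In untreated cells, then, Ddit3 was highest on day 2, and its mean on day 4 was the lowest of the 10 groups. Atf4, Atf5, Nupr1 and Ppp1r15a differed by 0.07, -0.00, -0.17 and 0.15 in that step, and their libraries overlapped.

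At 2 µM, 3 of the 6 rose from day 1 to day 2, where 21.7% of all genes were called, 12.7% as higher. Atf4 rose by 1.53 (limma adjusted p = 5.2e-16), Atf5 by 1.44 (adjusted p = 4.5e-08) and Nupr1 by 0.90 (adjusted p = 0.0057). Without the odd libraries Ppp1r15a passed as well (0.97, adjusted p = 0.0016) and Nupr1 rose by 1.34, where 19% of all genes were called. With day 1 replicate 3 left out, Nupr1 no longer passed (0.54, adjusted p = 0.1), nor did it with only those groups in the fit (adjusted p = 0.13). From day 2 to day 4 at 2 µM, Nupr1 rose again, by 0.89 (adjusted p = 0.0056), to 52.5, 41.3 and 51.5 scaled CPM on day 4, against 25.3, 23.6 and 27.9 on day 2, the 1 call among the 6 where 25.2% of all genes were called and 12.1% as higher. These groups did not overlap, as for 21% of all genes.

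Ordered by mean, the 10 groups ran from 5.52 to 45.9 scaled CPM for Ddit3, 4.07 to 38.2 for Atf3, 9.39 to 112 for Nupr1, 85.7 to 434 for Atf4, 32.8 to 157 for Atf5 and 10.0 to 36.1 for Ppp1r15a. The highest mean of each gene was that of 5 µM on day 4. For Atf3 and Ppp1r15a it was the 1 group whose libraries stood apart from its neighbour in the order, while the other 8 steps in the order were between groups that overlapped. Atf4 had 4 such gaps, and its 5 µM day 2 group stood alone between the day 1 groups and untreated day 0. Atf5 differed from the others at the top, since 5 µM day 4 overlapped with 2 µM day 4 (148, 153 and 138 scaled CPM). For Nupr1 both chromate groups of day 4 were apart from all groups below them.

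Within a library, the balance between the genes also moved. Ddit3 reads per 100 Atf4 reads numbered 10.8, 10.1 and 10.9 at 5 µM on day 4, against 1.52, 2.09 and 2.16 in untreated cells, and 7.55, 6.55 and 7.39 at 5 µM on day 2, against 5.43, 3.96 and 3.45. The day 1 libraries had ratios of 5.25, 12.2 and 12.2 at 5 µM, against 6.19, 4.96 and 6.93 in untreated cells, so the day 1 mean at 5 µM, 9.90 ± 4.03, differed from the day 4 mean of 10.6 by less than its own SD. The third of these day 1 libraries is the one with lung transcripts. On day 2 the ratio was higher at 5 µM while Ddit3 itself overlapped with untreated cells and Atf4 was lower. At 2 µM the ratio on day 4 was 2.73, 3.51 and 2.53. Atf5 reads per 100 Atf4 reads averaged 34.3 ± 1.33 at 5 µM on day 2, against 48.2 ± 5.63 in untreated cells, and 36.2 ± 1.74 on day 4, against 46.3 ± 10.8. Ppp1r15a reads per 100 reads of Ppp1r15b, the gene of the constitutive phosphatase subunit, averaged 14.9 ± 0.410 at 5 µM on day 4 and 20.8 ± 5.46 in untreated cells, with overlap. These are ratios of reads and not of molecules, since the genes differ in length, and the ratios with 5 µM were not tested.

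**Figure D3:**
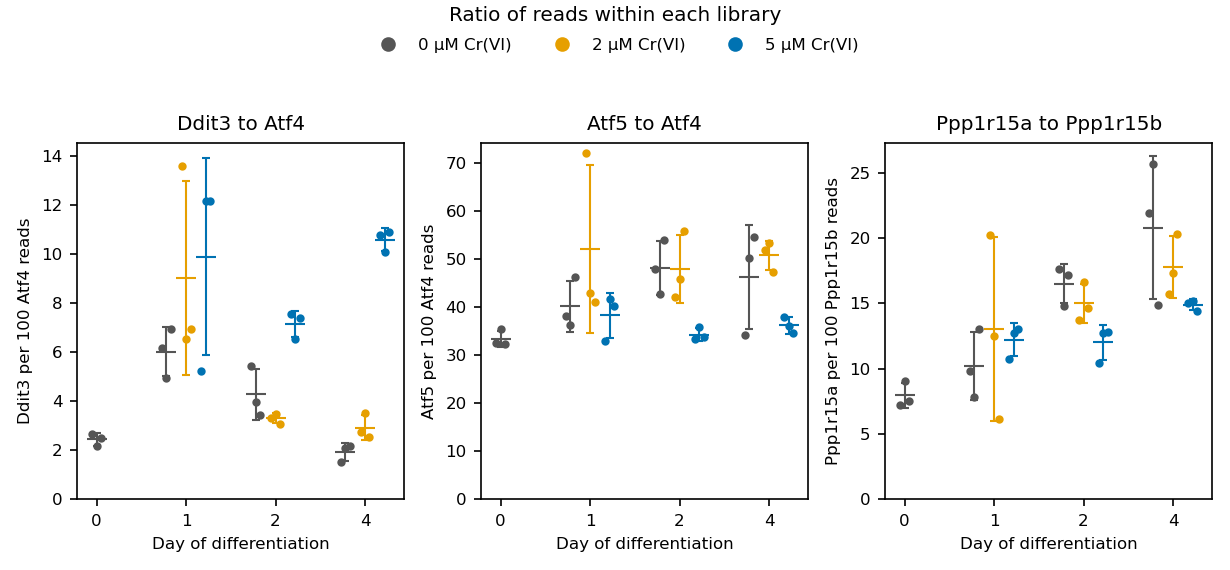
Reads of one gene per 100 reads of another in the same library (y axes from 0) by day and dose, with points for libraries and bars for the mean and SD of 3. Ddit3 per 100 Atf4 reads was 10.6 ± 0.469 at 5 µM on day 4, against 1.92 ± 0.352 in untreated cells.

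Over the 10 group means, the 6 genes fell into more and less alike pairs. Pearson's r of the log2 levels was 0.96 for Atf4 with Atf5 and 0.96 for Nupr1 with Ppp1r15a, 0.85 for Ddit3 with Atf3, 0.46 for Ddit3 with Atf4 and 0.23 for Atf3 with Atf5. By rank among 10982 other genes, Atf5 was number 3 for Atf4, Ppp1r15a number 10 for Nupr1, and Atf3 number 251 for Ddit3. The group means share libraries, depth and the course of differentiation, and the 5 µM day 4 group weighs heavily, so r is given without a p. Atf5 came after Aars (0.981), the gene of a cytosolic tRNA synthetase, and Ntmt1 (0.963) among the genes most like Atf4, and before Jagn1 (0.958) and Slc3a2 (0.956), a subunit of amino acid transporters. The genes most like Atf5 were Eif3j1 (0.968), Slc6a9 (0.966), a glycine transporter, Atf4 (0.963), Slc3a2 (0.952) and Jagn1 (0.950).

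Atf3 was most like Ube2z (0.984), Luc7l (0.983), Hdgf (0.977), Ppp1r15b (0.976) and Paxbp1 (0.975), all higher at 5 µM on day 4, as with Luc7l at 100 ± 5.40 scaled CPM, against 33.7 ± 6.36 in untreated cells. Ddit3 was most like Rassf8 (0.968), Snx3 (0.964), Tiprl (0.963), Kbtbd2 (0.955) and Zfp772 (0.952). The genes most like Nupr1 were Lman2 (0.983), Mid1ip1 (0.979), Aggf1 (0.977), Oaz1 (0.976) and Slc35e4 (0.969), and those most like Ppp1r15a were Tollip (0.979), Tusc2 (0.975), Mid1ip1 (0.973), Pfdn2 (0.972) and Maea (0.968).

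**Figure D4:**
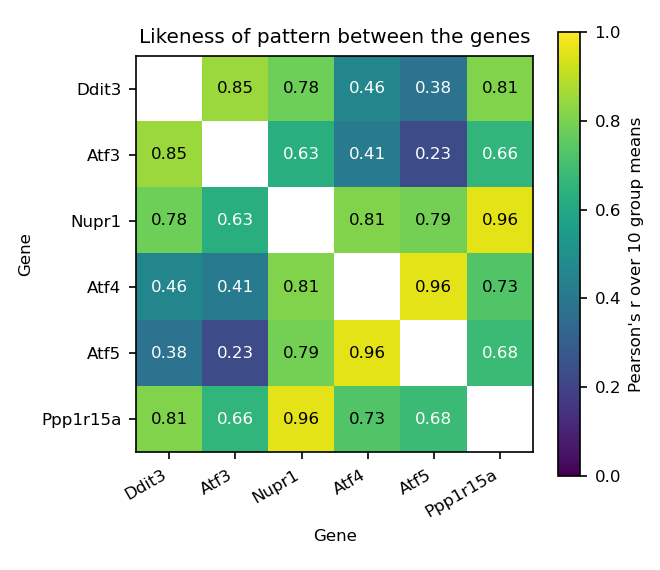
Pearson's r between the 6 genes over the 10 group means of log2(scaled CPM + 1), with the colour scale from 0 to 1. Atf4 with Atf5 and Nupr1 with Ppp1r15a reach 0.96, and Atf3 with Atf5 is lowest at 0.23.

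The other genes of the pathway were read from 7 lists of 139 genes, without the 6 described above. Of these, 137 were found and 132 tested, and at 5 µM against untreated cells 7 rose and 43 fell on day 1, 14 rose and 54 fell on day 2, and 39 rose and 50 fell on day 4. The share called was 37.9%, 51.5% and 67.4%, against 13.7%, 23.7% and 55.8% of all genes. The lists were chosen with earlier results of these data known, so these shares and the p-values of list genes are not independent of that choice. Of all genes 4.29% were called higher and 9.41% lower on day 1, 10.2% and 13.4% on day 2, and 27.3% and 28.6% on day 4. Without the odd libraries 9 of the pathway genes rose and 41 fell on day 1. Of the 54 that fell on day 2, 37 also fell on day 4, which is 37 of the 50 that fell there, 13 were not called and 4 rose.

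The targets of ATF4 for amino acid supply were mostly called lower. At 5 µM, 13 of 21 fell on day 1 (14 without the odd libraries), 19 on day 2 and 13 on day 4. Of all genes 9.41%, 13.4% and 28.6% fell on those days. The median log2 differences were -0.66 (-0.64 without the odd libraries), -1.39 and -0.90, against -0.01 for all genes on each day. Asns, asparagine synthetase, read 34.9 ± 6.46 scaled CPM at 5 µM on day 2, against 193 ± 15.9 in untreated cells (-2.45, limma adjusted p = 1.2e-13), and 103 ± 5.73 on day 4, against 192 ± 3.45 (-0.90, adjusted p = 2.0e-05). The mitochondrial folate enzyme Aldh1l2 fell by 3.70 on day 2 and by 3.07 on day 4, to 5.91 ± 2.36 scaled CPM against 54.9 ± 1.09. The proline synthesis genes Pycr1 and Aldh18a1 fell by 1.94 and 1.86 on day 4. Psat1, of serine synthesis, fell by 1.27 on day 2 and differed by -0.22 on day 4 (adjusted p = 0.062), where it passed under 6 alternative settings, the loss of the odd libraries (adjusted p = 0.019) among them. The amino acid transporter Slc38a2 rose on day 4, by 0.56. Asns per 100 Atf4 reads stood at 25.0, 23.6 and 22.4 at 5 µM on day 4, against 61.8, 66.9 and 71.3 in untreated cells. Atf4 itself was then above its untreated level. The ratio, though, was near its earlier 5 µM means of 24.7 ± 9.17 (day 1) and 24.6 ± 4.46 (day 2). Of the day 1 libraries at 5 µM, the one with lung transcripts read 35.2, and the rest 18.3 and 20.6. Untreated means of this ratio ran from 37.1 ± 6.91 (day 1) to 93.6 ± 3.74 (day 0), with 70.6 ± 3.85 for day 2.

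The stress targets of ATF4 and CHOP moved both ways. At 5 µM, 2 of 16 rose and 3 fell on day 1 (3 and 4 without the odd libraries), where 4.29% of all genes rose and 9.41% fell. On day 2, 2 rose and 7 fell, with a median of -0.23, where 10.2% of all genes rose and 13.4% fell. On day 4, 8 rose and 3 fell, with a median of 0.42. The share called on day 4 was 68.8%, against 55.8% of all genes, of which 27.3% rose and 28.6% fell. Gdf15, a secreted stress factor, rose by 1.74 on day 4 to 21.9 ± 2.49 scaled CPM, against 5.87 ± 0.802 in untreated cells (limma adjusted p = 2.5e-06). Vldlr, a lipoprotein receptor, rose by 2.02 on day 4 and Ero1l, an oxidase of the endoplasmic reticulum that is a known CHOP target, by 1.36. Vldlr had also been called higher on day 1 (1.45, with the odd libraries included) and day 2 (1.65). Trib3, a pseudokinase induced by CHOP, fell by 2.37 on day 2, to 0.872 ± 0.352 scaled CPM against 8.92 ± 3.15, and rose by 1.30 on day 4, to 14.8 ± 2.54 against 5.77 ± 2.67 (adjusted p = 0.0031). Sesn2 followed the same turn, with -0.73 on day 2 (adjusted p = 0.024) and 0.80 on day 4 (adjusted p = 0.0048), though its day 2 call was lost under quantile normalization (adjusted p = 0.081) and without any of 4 single libraries (adjusted p of 0.051 to 0.14). Chac1, which degrades glutathione, fell on each day, by 1.13 (1.06 without the odd libraries), 2.25 and 0.98, and Pmaip1, the pro-apoptotic gene of NOXA, fell by 0.62 (0.53), 0.86 and 1.43. Fgf21, a secreted factor of the muscle mitochondrial stress response, fell by 2.44 on day 1 (2.70 without the odd libraries) and 2.05 on day 2, and read 30.0 ± 3.61 scaled CPM on day 4, against 44.2 ± 5.22 in untreated cells (-0.54, adjusted p = 0.064). Bbc3, the pro-apoptotic gene of PUMA, rose by 0.86 on day 4 (adjusted p = 0.022) but not with edgeR (adjusted p = 0.059), nor without any of 3 single libraries (adjusted p of 0.051 to 0.079).

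The bZIP list held 29 tested genes, partners of CHOP and ATF3 as well as other relatives of the family. At 5 µM, 3 of them rose and 3 fell on day 1, where 4.29% of all genes rose and 9.41% fell. On day 2, 7 rose and 3 fell (10.2% and 13.4% of all genes). On day 4, 17 rose and 5 fell, where 27.3% of all genes rose and 28.6% fell. Without the odd libraries 1 fell on day 1. Maff rose by 1.81 on day 4, to 37.8 ± 6.59 scaled CPM against 10.2 ± 2.69 in untreated cells (limma adjusted p = 9.1e-09), Jund by 1.55, Cebpa by 1.46 and Jun by 0.97. Jun and Jund had already risen on day 2, by 0.87 and 0.81. Cebpb, a partner of CHOP, rose by 0.96 on day 4 (adjusted p = 0.015), but not without untreated replicate 1 (0.064), untreated replicate 3 (0.094) or 5 µM replicate 3 (0.051). Cebpg, a partner of ATF4, rose by 0.60 (adjusted p = 5.3e-04). Creb3l1 fell by 1.84, Xbp1 by 1.27 and Creb3l2 by 1.22.

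Of the kinases that phosphorylate eIF2α, Eif2ak3, which encodes PERK, was called in both directions. It fell by 0.62 on day 1 (limma adjusted p = 0.03), a call lost without any of 4 single libraries (adjusted p of 0.068 to 0.12) but not without the odd ones (0.035), and rose by 1.00 on day 4, to 25.3 ± 3.37 scaled CPM against 12.5 ± 4.23 in untreated cells (adjusted p = 5.6e-05). Eif2ak2, which encodes PKR, rose by 0.77 on day 2 and by 0.58 on day 4 (adjusted p = 0.019), the second of which was lost with only those groups in the fit (adjusted p = 0.12) and without any of 3 single libraries (0.081 to 0.18). Eif2ak1 and Eif2ak4, which encode HRI and GCN2, were not called on day 4 (0.25, adjusted p = 0.053, and 0.07, adjusted p = 0.82). Ppp1r15b rose by 0.33 on day 2, a call lost without any of 3 single libraries (adjusted p of 0.073 to 0.12), and by 1.35 on day 4, to 243 ± 17.1 scaled CPM against 95.8 ± 19.1. On that day the eIF2B subunit genes Eif2b3 and Eif2b5 fell, by 1.02 and 0.70. Of the 19 genes of this list, 7 rose and 5 fell on day 4, a share called of 63.2%, near the 55.8% of all genes.

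**Figure D5:**
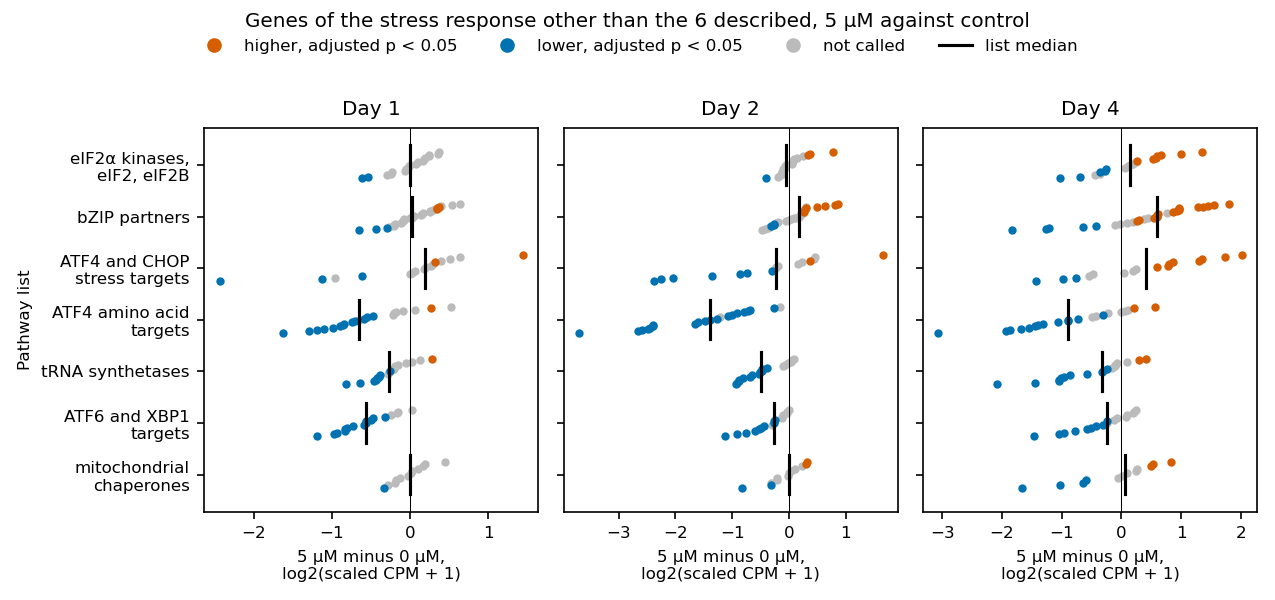
Log2 difference between 5 µM and untreated cells (x axes, log2(scaled CPM + 1)) of each tested gene in the 7 lists, on days 1, 2 and 4, without the 6 genes described above. Points are genes, coloured by their call, and vertical bars are list medians, which for the amino acid targets are -0.66, -1.39 and -0.90.

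Targets of ATF6 and XBP1, the other branches of the response to unfolded protein in the endoplasmic reticulum, had calls in 1 direction, with 13 of 17 falling on day 1 (12 without the odd libraries), then 10 and 9 falling on days 2 and 4. Of all genes 9.41%, 13.4% and 28.6% fell on days 1, 2 and 4. On day 4 the share of the list called, 52.9%, was close to the 55.8% of all genes. The chaperone Hspa5 fell by 1.19 on day 1, to 322 ± 11.2 scaled CPM against 732 ± 14.0 (limma adjusted p = 3.1e-15; 1.17 without the odd libraries), by 0.25 on day 2 and by 0.58 on day 4. The day 2 call was lost without 5 µM replicate 3 (-0.17, adjusted p = 0.082). Sdf2l1, Pdia4 and Pdia6 fell by 1.47, 1.05 and 0.96 on day 4. Of 18 cytosolic tRNA synthetase genes, 8 fell on day 1 (also without the odd libraries), 12 on day 2 and 11 on day 4. Of all genes 9.41%, 13.4% and 28.6% fell on those days. The largest fall of the list on day 4 was that of Vars (-2.08). By contrast, Hars rose by 0.28 on day 1, a call lost without the odd libraries. Aars and Wars rose by 0.29 and 0.42 on day 4. Of 12 mitochondrial chaperone and protease genes, the chaperones Hspe1, Hspd1 and Hspa9 rose on day 4, by 0.83, 0.53 and 0.50. On that day 4 of the list fell, with Htra2 at -1.66, Trap1 at -1.03 and Lonp1 at -0.64. The share of this list called on day 4 was 58.3%, near the 55.8% of all genes. Hspe1 and Hspd1 had also been called higher on day 2, by 0.32 and 0.30.

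At 2 µM, 14 of the 132 genes were called on day 1 (2 higher and 12 lower), 0 on day 2 and 10 on day 4 (6 higher and 4 lower), where 1.99%, 0.51% and 8.84% of all genes were. On day 1 the 12 lower genes were 6 targets of ATF6 and XBP1, 3 amino acid targets, 2 stress targets and 1 tRNA synthetase gene. Without the odd libraries these numbers were 5, 4, 0 and 1. The number called on day 1 was then 10, and both higher genes, Vldlr (1.88) and Ero1l (1.22), were no longer called (0.97 and 0.52). It was 9, 5 and 8 without untreated replicates 1, 2 and 3, 7 without 2 µM replicate 1, and 0 with only those groups in the fit. On day 2, 15 were below an unadjusted p of 0.05, and edgeR called 0 and DESeq2 4. The bZIP genes called higher on day 4, named after their values were seen, were Maff (0.92, limma adjusted p = 0.0044), Jund (0.72), Jun (0.56), Jdp2 (0.49) and Nfe2l2 (0.38). The genes called lower on day 4 were the ATF4 amino acid targets Aldh1l2 (-1.06, adjusted p = 0.0029), at 26.3 ± 5.93 scaled CPM at 2 µM against 54.9 ± 1.09, and Gpt2 (-0.44, adjusted p = 0.0018), with Htra2 (-0.46) and Creb3l1 (-0.41), and the tRNA synthetase gene Wars was higher (0.41). On the same day Trib3, Gdf15, Chac1, Asns and Fgf21 were not called (0.33, 0.62, 0.03, -0.24 and -0.30). The 2 µM and 5 µM comparisons of a day share their untreated libraries.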

How the data were processed

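Values of 30 RNA-seq libraries came from 1 table of all samples. The deposited signal, which the authors name CPM, is called scaled CPM here. Which aligner, counter, genome build, strand setting and scaling they used was not given in the sources used here. The labels' protocols name TRIzol for RNA and the TruSeq RNA kit for libraries. Within each library all values proved to be multiples of what 1 read is worth (0.038 to 0.0584 scaled CPM, with 100% of values within 0.02 of a whole read), so reads were recovered. The libraries held 18462092 to 26947109 reads. Genes with at least 1 scaled CPM in 3 libraries (12946) were fitted as log2(scaled CPM + 1) with limma 3.58.1 in R 4.3.3, with 10 group means, trended variances and 20 residual degrees of freedom. Calls needed an adjusted p (Benjamini-Hochberg, over all genes) below 0.05, and all adjusted p come from this fit unless another tool is named. "Apart" means that the ranges of the libraries did not overlap.

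The 6 genes, the 7 pathway lists and the tests were chosen with earlier results of these data known. Pathway genes were named by rule, as a fixed set of key genes plus up to 3 rises and 3 falls per list and day at 5 µM with at least 5 scaled CPM in the higher group. Of 139 list genes, 19 were found by an older symbol, which is the one printed. Likeness was computed for genes with a group mean of at least 5 scaled CPM. Alternatives were other pseudocounts (0.5 and 2), other filters, other scalings, a replicate block, only the groups compared, each library left out, both odd libraries left out, and edgeR 4.0.16 (quasi-likelihood) and DESeq2 1.42.0 on the recovered reads. The fits were tested on simulated data. Promoter sequences are from RefSeq (GRCm38.p6), and all 6 genes matched. Gene overlaps are from the mouse GENCODE annotation of the reference.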

Additional observations from a re-analysis of the deposited data

How the results depend on the processing

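No difference of the 6 genes or of the named pathway genes turned its direction past a call under any alternative. The number of the 6 genes called at 2 µM on day 4 was 0 and became 1 with a pseudocount of 2, with a filter of 5 scaled CPM and without both odd libraries. In untreated cells the number called from day 1 to day 2 was 5 and became 3 with no filter. For the change of the 2 µM effect it was 0 and became 1 with only the groups of the comparison, where pathway genes called at 5 µM on day 1 were 32 in place of 50. Pathway genes called at 2 µM on day 4 were 10, and became 5 with only the groups of the comparison and 17 with DESeq2. Over all genes, quantile normalization moved the split of calls from day 1 to day 2 in untreated cells to 1416 higher and 1606 lower, in place of 1658 and 1220, at 2 µM to 1445 and 1477, in place of 1645 and 1160, and at 5 µM against untreated cells on day 1 to 853 and 1079, in place of 556 and 1218. The cause was not tested. With each library left out in turn, the number of the 6 called was 0 to 1 at 2 µM on day 1, 0 to 0 on day 2 and 0 to 1 on day 4. In untreated cells it was 2 to 4 from day 0 to day 1, 3 to 4 from day 1 to day 2 and 1 to 1 from day 2 to day 4. At 2 µM it was 2 to 4 from day 1 to day 2 and 1 to 1 from day 2 to day 4, and for the change of the 2 µM effect it was 0 to 0. Pathway genes called at 5 µM were 39 to 45 on day 1, 55 to 60 on day 2 and 80 to 86 on day 4.

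Deviations from the group means correlated at -0.23 to 0.13 for libraries of the same replicate number (135 pairs, median 0.01). For different numbers (270 pairs) they correlated at -0.13 to 0.23. The deviations cancel within a group, which ties these ranges to each other. They gave no sign of pairing by replicate number but cannot exclude it. With the replicate number as a block, Ddit3 from day 1 to day 2 in untreated cells had a difference of 0.70 and an adjusted p of 0.057, and the number of the 6 called there was 4. Pathway genes called at 5 µM under the block were 51, 67 and 90 on days 1, 2 and 4. Depth limits the low genes most, since Atf3 rested on 53 to 105 reads per library in untreated cells on day 4.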
